A study of Sus scrofa with 13 samples.

Results

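Heart and adult skeletal muscle of the pig were compared gene by gene in total RNA sequenced from Guizhou mini-pigs at postnatal day 240. The heart library was set against the library of longissimus dorsi, the long muscle of the back, and every Ensembl gene and every assembled long noncoding RNA (lncRNA, identifiers beginning with TCONS) with at least 1 RPKM in either library was kept. RPKM is the number of reads scaled by transcript length and by the reads of the library, so that levels of different genes can be set side by side. A total of 8226 of 32420 listed features were kept, comprising 7798 of 21607 Ensembl genes and 428 of 10813 lncRNAs. The 2 libraries belong to a series of 13, which also holds 7 other organs at day 240 (adipose tissue, kidney, liver, lung, ovary, spleen and testis), the same muscle at day 0 and day 30, and 2 mixtures pooled over breeds and ages, a muscle mixture and a tissue mixture. No treatment or genetic change is named in the labels, and the labels do not say how many animals gave RNA to a library or which chamber of the heart was taken.

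Heart and skeletal muscle are both striated: thick filaments of myosin slide along thin filaments of actin inside sarcomeres, and calcium released from the sarcoplasmic reticulum switches the thin filament on through troponin and tropomyosin. Many of these proteins come as paralogs, with one form used in the heart and slow fibres and another in fast fibres. The heart beats without rest on fatty acids and oxidative phosphorylation, whereas a muscle rich in fast fibres draws on glycogen and glycolysis for short bursts.

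There was 1 library per tissue, so no difference below had a replicate check and no test between tissues was possible. Differences are given as log2(RPKM + 0.1) of heart minus muscle, and a feature was counted as higher in one tissue when it was at least 2-fold apart on that scale. A fold is the ratio of the RPKM values, and the range in parentheses after it is the exact 95% interval from the reads behind it, which covers counting error only and speaks of these libraries, not of the tissues. Totals of 35977890 reads (heart) and 32641450 reads (muscle) lay behind the RPKM values, of which 6937621 and 7154465 were counted on the listed features. In whole tissue, fewer cells of a type and less RNA per cell cannot be told apart.

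Of the 7798 Ensembl genes, 2814 (36.1%) were higher in heart, 956 (12.3%) were higher in muscle and 4028 lay within 2-fold. The median difference of these genes was 0.53. Over the 7869 features above 0 in both libraries the median ratio was 0.55 on the log2 scale, a level 1.47-fold higher in heart. After scaling to equal this median ratio, 1477 Ensembl genes were higher in heart and 1661 higher in muscle, so that the share of called genes on the heart side moved from 74.6% to 47.1%. This scaling sets the median ratio to 1 by construction, so the even split after it is no evidence on the excess, and differences are given beside this shift. The labels name a SMART and a dUTP library protocol without saying which was used for each library, so the heart and muscle libraries may differ in protocol, and the part of the protocol in these differences was not tested. The largest differences were far larger than the median shift of 0.55, and they ran from 9.46 on the heart side to -10.90 on the muscle side.

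Several named genes at the heart end encode parts of the cardiac sarcomere. TNNT2, cardiac troponin T, was at 4075 RPKM in heart and 6.07 in muscle, a ratio of 671 (579 to 782). MYBPC3, cardiac myosin-binding protein C, was at 236 against 0.405 RPKM, a ratio of 583 (448 to 774). RYR2, the calcium release channel of the cardiac sarcoplasmic reticulum, was at 121 against 0.519 RPKM, 234-fold higher in heart (205 to 266). ACTC1, the cardiac alpha-actin, was at 229 against 0.939 RPKM. The same end held CCK, the peptide hormone cholecystokinin, with 38.8 RPKM in heart and no read in muscle, at least 285-fold higher against a floor of 3 reads. The other 5 of the 10 genes furthest on the heart side had no symbol in the names used here. They were ENSSSCG00000024505, ENSSSCG00000003782, ENSSSCG00000016048, ENSSSCG00000027311 and ENSSSCG00000017647. ENSSSCG00000024505 was the most abundant feature of the heart library at 8019 RPKM, 708-fold above its 11.3 RPKM in muscle (633 to 795), whereas ENSSSCG00000003782 rested on 157 reads in heart and none in muscle, which bounds its fold at 47.5 or more.

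The named genes at the muscle end included genes of the contractile apparatus of fast fibres and their calcium supply, with CA3 beside them. TNNC2, troponin C of fast fibres, was at 10378 RPKM in muscle and 7.47 in heart, 1390-fold higher (1207 to 1608). MYL11, the regulatory myosin light chain of fast fibres, was at 1358 against 0.845 RPKM, 1607-fold higher (1051 to 2597). ATP2A1, the calcium pump of the fast sarcoplasmic reticulum, was at 351 against 0.326 RPKM. CA3, the carbonic anhydrase of muscle, was at 599 against 0.580 RPKM. MYLK2, the kinase of the skeletal myosin light chain, was at 157 against 0.133 RPKM. The 2 myosin heavy chain genes of this group, MYH8 (3695 against 2.44 RPKM) and MYH13 (385 against 0.230 RPKM), belong to a cluster of near-identical genes, so reads may be split among them in a way that cannot be checked here. The names of the myosin heavy chain genes come from the table of gene names alone and may be wrong for this gene build. ENSSSCG00000018006, ENSSSCG00000018003 and ENSSSCG00000011224, which had no symbol, completed the 10, and ENSSSCG00000011224 had 90.2 RPKM in muscle and no read in heart, at least 266-fold higher.

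**Figure D1:**
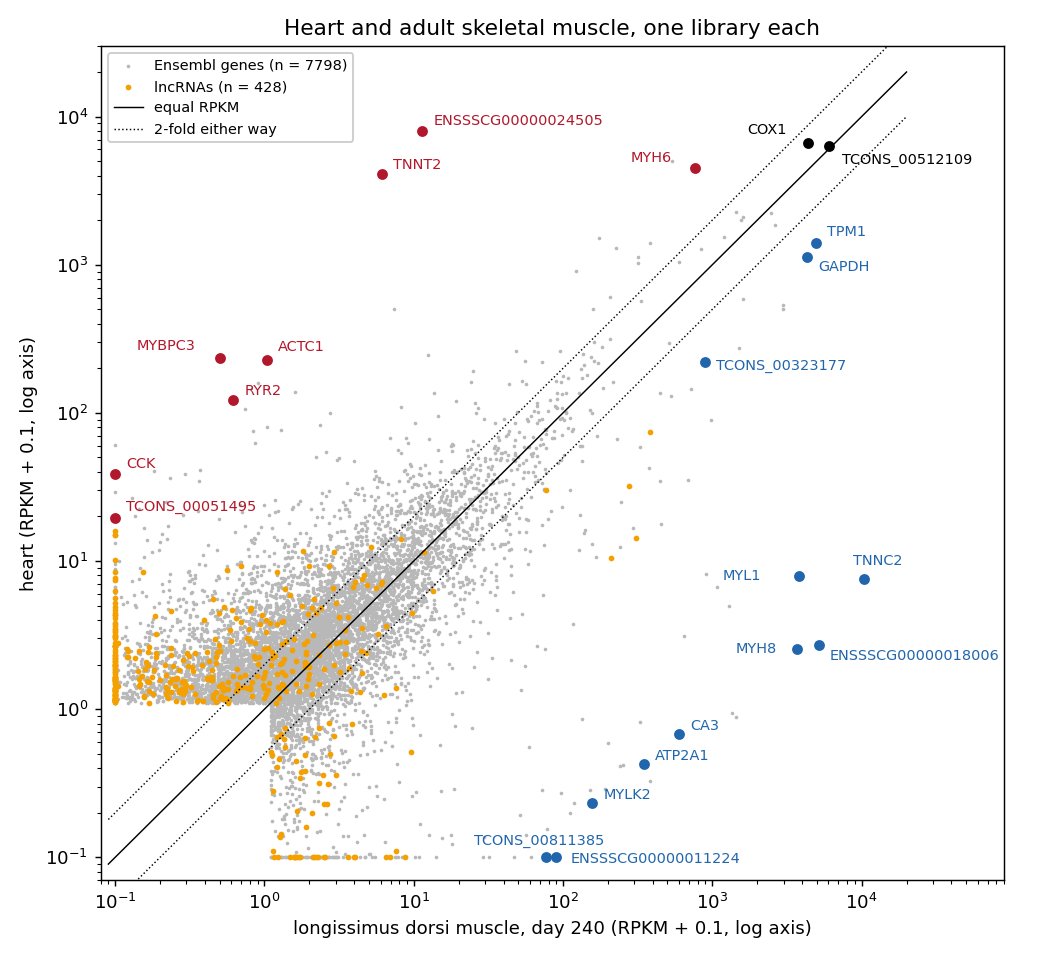
RPKM + 0.1 in heart (vertical, log axis) against RPKM + 0.1 in longissimus dorsi at day 240 (horizontal, log axis) for 7798 Ensembl genes (grey) and 428 lncRNAs (orange), with the line of equal RPKM (solid) and 2-fold either way (dotted). Named features higher in heart are red, higher in muscle blue and within 2-fold black; TNNT2 at 4075 against 6.07 RPKM and TNNC2 at 7.47 against 10378 RPKM stand at opposite ends.

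A few transcripts made up much of each library. The 10 most abundant features took 35.8% of the summed RPKM in heart and 37.2% in muscle, and 25 and 20 features, respectively, were enough for 50% of it. In the 7 other organs the 10 most abundant took between 7.81% and 22.6%, and in longissimus dorsi they took 26.9% at day 0 and 35.9% at day 30. The same 10 of each library held 32.1% (heart) and 25.0% (muscle) of its counted reads. The 10 features with the most reads, which are not all the same ones, held 32.7% in heart and 32.6% in muscle.

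The transcripts behind these like shares were mostly different. The heart's 10 were ENSSSCG00000024505, COX1, TCONS_00512109, ENSSSCG00000009830, MYH6, TNNT2, CYTB, COX2, ATP6 and COX3, and 5 of them are encoded in the mitochondrial genome. The 10 of muscle were TNNC2, TCONS_00512109, ENSSSCG00000018006, TPM1, COX1, GAPDH, MYL1, MYH8, ACTA1 and TPM2, of which 1 is mitochondrial and at least 6 encode proteins of the sarcomere. Both lists held COX1, a subunit of cytochrome c oxidase, and TCONS_00512109. The heart's 10 took 14.4% of the summed RPKM in muscle, and the 10 of muscle took 13.7% in heart. Of the heart's 10, 2 ranked outside the top 100 of muscle, ENSSSCG00000024505 and TNNT2. Of the 10 of muscle, 4 ranked outside the top 100 of heart, TNNC2, ENSSSCG00000018006, MYL1 and MYH8.

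The 13 protein-coding genes of the mitochondrial genome took 19.9% of the summed RPKM in heart and 13.2% in muscle. Without them the 10 most abundant features took 35.9% in heart and 40.4% in muscle, so the muscle share grew while the heart share kept its level. With Ensembl genes alone, the shares were 34.4% and 37.2%.

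**Figure D2:**
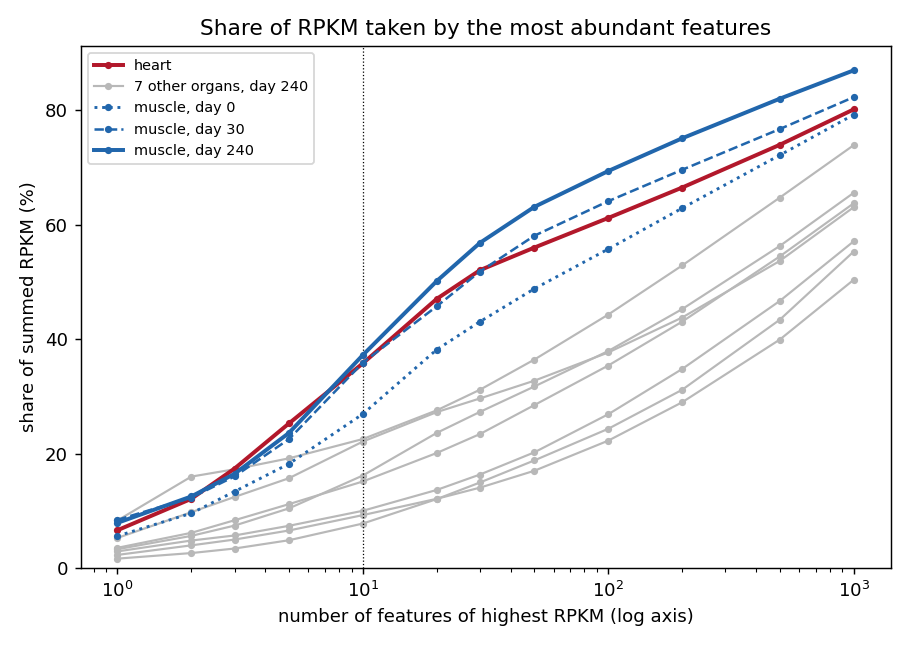
Share of the summed RPKM (%, vertical) taken by the most abundant features of a library, from 1 to 1000 features (horizontal, log axis), in heart (red), longissimus dorsi at day 240, day 30 and day 0 (blue, solid, dashed and dotted) and the 7 other organs (grey). At 10 features (vertical dotted line) heart is at 35.8% and muscle at 37.2%, above the 7.81% to 22.6% of the other organs.

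At 100 RPKM or more, 91 features were found in heart and 107 in muscle, and 50 in both. Of these 50, 30 lay within 2-fold and are the shared abundant features, 10 were higher in heart and 10 higher in muscle. The shared 30 took 26.3% of the summed RPKM in heart and 20.1% in muscle. They comprised 10 genes of the mitochondrial genome, 1 lncRNA and 19 nuclear genes, 9 of these without a symbol. The named nuclear genes included structural genes of the sarcomere and its linkage to the rest of the cell. ACTN2, the alpha-actinin that anchors thin filaments at the Z-disc, was at 137 RPKM in heart and 129 in muscle. DES, the intermediate filament desmin, was at 298 and 515 RPKM, and LMOD2, leiomodin, which sets thin filament length, was at 146 and 185 RPKM. NEXN, an actin-binding protein of the Z-disc, was at 172 and 134 RPKM. TRIM63, the muscle ubiquitin ligase MuRF1, was at 315 and 205 RPKM. HRC, a calcium-binding protein of the sarcoplasmic reticulum, was at 173 and 108 RPKM. SLC25A4, the ADP/ATP carrier of the inner mitochondrial membrane, was at 217 and 172 RPKM. The respiratory chain subunit NDUFB9 was at 199 and 132 RPKM, the ubiquitin gene UBB at 102 and 105 RPKM, and LRRC39, a protein of the M-band, at 135 and 105 RPKM.

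Features present in both striated muscles and low elsewhere were also counted, with limits set after the values were seen. Of 648 Ensembl genes with at least 10 RPKM in both libraries, 50 (7.72%) were at least 10-fold above their highest level in the 7 other organs, and of 8 such lncRNAs 5 were. Of these 50 genes, 24 lay within 2-fold, 8 were higher in heart and 18 higher in muscle. Within 2-fold were ACTN2 (at most 0.373 RPKM in another organ), MYOM1 of the M-band (89.8 and 101 RPKM), NRAP (35.4 and 41.3 RPKM), FSD2 (26.7 and 34.3 RPKM), and CKMT2, the mitochondrial creatine kinase of striated muscle (58.9 and 58.1 RPKM). TCAP, which caps titin at the Z-disc, was at 192 RPKM in heart and 25.0 in muscle. XIRP2 was at 10.6 and 165 RPKM, and MYOT, myotilin of the Z-disc, at 24.8 and 243 RPKM.

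Thick filament genes separated into a small heart set and a large muscle set. Of 27 genes on the list 17 were paired with a symbol and 16 compared, of which 5 were higher in heart and 9 higher in muscle, against 36.1% and 12.3% of all Ensembl genes compared. The median difference was -8.27, and under both scalings tried the counts were the same. On the heart side stood MYBPC3, MYL4 (2.42 RPKM against no read), MYH7B (28.7 against 2.34 RPKM), MYL3 (1521 against 175 RPKM) and MYH6 (4521 against 768 RPKM). MYL3 is the essential light chain of the ventricle and of slow fibres. The symbol MYH6 stands for the alpha heavy chain, but it lies beside the near-identical MYH7, the beta heavy chain, which was not paired with an identifier, so the level of this pair could not be divided. In muscle, MYL1, the essential light chain of fast fibres, was at 3798 RPKM against 7.81 in heart. MYBPC1 and MYBPC2, the slow and fast skeletal forms of myosin-binding protein C, were at 191 and 153 RPKM in muscle and 0.187 each in heart. The M-band genes MYOM1 and MYOM2 (87.7 and 57.8 RPKM) lay within 2-fold.

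Of 13 thin filament genes compared, 4 (30.8%) were higher in heart and 8 (61.5%) higher in muscle, again under both scalings, with a median of -2.48. The shares over all Ensembl genes compared were 36.1% and 12.3%. The summed level of these 13 thin filament genes was 8556 RPKM in heart and 24180 in muscle. TNNT2, ACTC1, NEBL and TNNC1 were the 4 on the heart side. NEBL encodes nebulette, the short cardiac relative of nebulin, and was at 159 RPKM against 0.799. NEB itself, the giant protein along the skeletal thin filament, was at 8.03 RPKM in heart and 910.5 in muscle, 113-fold higher (109 to 118). TNNC1, troponin C of heart and slow fibres, was at 1408 and 383 RPKM. TNNI1, troponin I of slow fibres, was at 0.185 RPKM in heart on 6 reads and 72.7 in muscle. TMOD4, the skeletal tropomodulin, was at 0.717 and 325 RPKM. Tropomyosin genes were abundant in both tissues, TPM1 with 1392 and 4947 RPKM and TPM2 with 504 and 2987 RPKM.

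**Figure D3:**
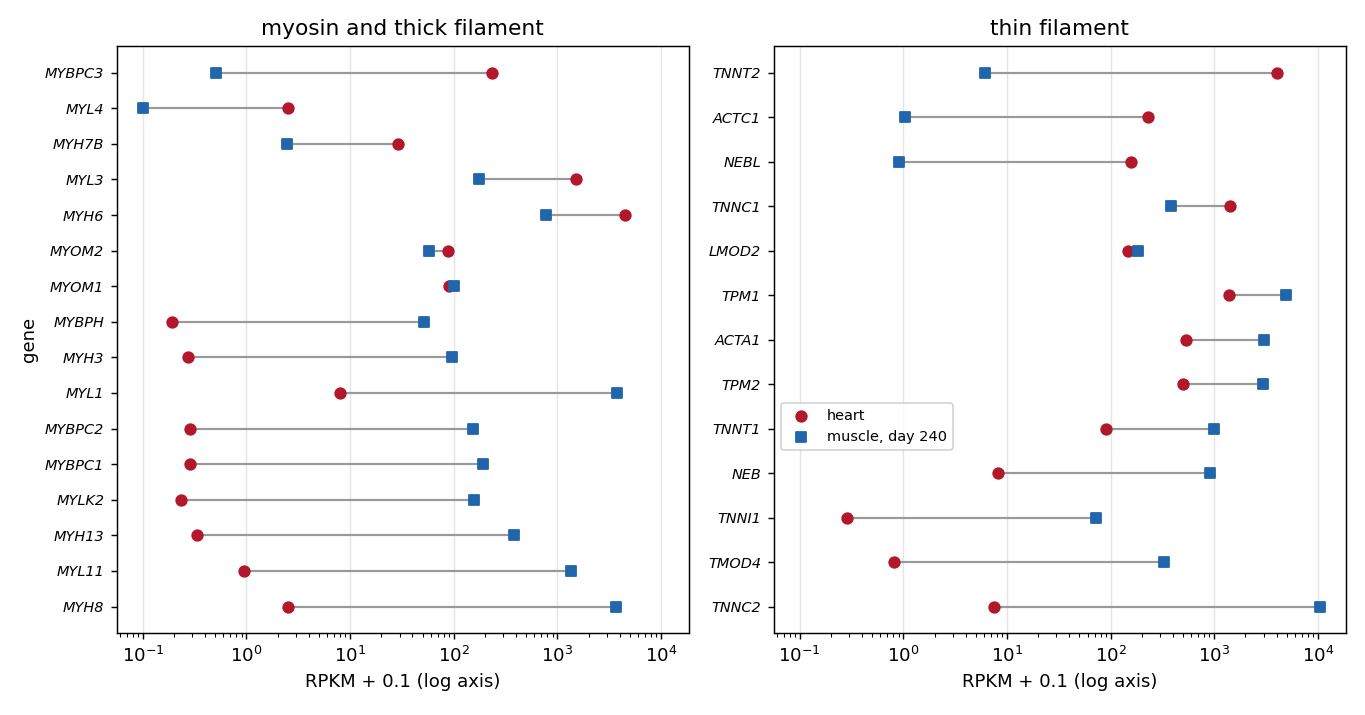
RPKM + 0.1 (log axis) of the 16 thick filament and 13 thin filament genes compared, in heart (red circles) and longissimus dorsi at day 240 (blue squares), 1 library each, joined by a grey line and ordered by difference. In both panels the genes at the top are higher in heart (5 and 4 genes) and those at the bottom higher in muscle (9 and 8 genes), with MYOM1, MYOM2 and LMOD2 nearly at the same level.

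The use of paralogs was described as the share of a family's summed RPKM that came from its heart form, over 10 families put together after their values were seen. Troponin T was 97.9% TNNT2 in heart and 0.611% in muscle, the rest being TNNT1. TNNT3, the troponin T of fast fibres, was not paired with an identifier, so these shares leave it out and do not give the whole troponin T of the muscle. Troponin C was 99.5% TNNC1 in heart and 3.56% in muscle, and myosin-binding protein C was 99.8% MYBPC3 in heart and 0.118% in muscle. Nebulette made up 95.2% of NEBL and NEB in heart and 0.0876% in muscle, and MYL3 made up 99.5% of MYL3 and MYL1 in heart and 4.39% in muscle. Among the sarcomeric alpha-actins the heart form took the smaller part in heart. ACTC1 took 29.9% of the actin pair there and ACTA1 the larger part with 538 RPKM, while in muscle ACTC1 took 0.0313% of 2998 RPKM. The coding sequences of these actins are nearly alike, so this split is uncertain. In younger muscle the ACTC1 share was 4.05% at day 0 and 0.227% at day 30, with levels of 84.9 and 7.23 RPKM. In the muscle mixture it was 10.1%, and the ACTC1 level of 344 RPKM there was above the 229 RPKM of heart. Of the families outside the sarcomere, the heart forms took 98.1% of the calcium channel beta subunits CACNB2 and CACNB1 in heart and 0.164% in muscle, 97.3% and 29.2% of the hexokinases HK1 and HK2, and 54.6% and 0.504% of the glycogen phosphorylases PYGB, PYGL and PYGM. The hexokinase pair summed to only 3.08 RPKM in muscle at day 240. HK1 was its larger form in the other muscle libraries, with 65.6% at day 0, 69.0% at day 30 and 60.2% in the muscle mixture.

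At the Z-disc and its linkages, 3 of 16 genes compared were higher in heart and 8 higher in muscle. Over all Ensembl genes compared the shares were 36.1% and 12.3%. The list thus lay below the heart share and above the muscle share. At equal median ratio the counts were 2 and 9, where CSRP3 came within 2-fold and DES passed 2-fold on the muscle side. ANKRD1, a stress-responsive ankyrin repeat protein, was at 76.5 RPKM in heart and 1.18 in muscle. CSRP3, the muscle LIM protein, was at 263 and 94.8 RPKM. Its level in muscle was 327 RPKM at day 0 and 11.4 at day 30, so the day 0 muscle library held more of it than the heart. On the other side MYOZ1, the myozenin of fast fibres, was at 0.099 RPKM in heart on 5 reads and 112 in muscle, and PDLIM3 was at 3.66 and 116 RPKM.

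Genes of calcium handling were mostly higher in muscle, with 9 of 14 compared (64.3%) on that side under each scaling. On the heart side stood 2 (14.3%), RYR2 and CACNB2, also under each scaling. The shares over all Ensembl genes compared were 12.3% on the muscle side and 36.1% on the heart side. CASQ1, the skeletal calcium store protein calsequestrin, was at 642 RPKM in muscle and 3.03 in heart, 212-fold higher (184 to 244). SLN, sarcolipin, which binds the calcium pump, was at 253 RPKM in muscle and 0.318 in heart on 9 reads. CACNA1S, the voltage sensor of the skeletal calcium channel, was at 25.2 and 1.83 RPKM, and its subunit gene CACNG1 was at 10.1 RPKM with no read in heart, at least 138-fold higher. PVALB, the calcium buffer parvalbumin of fast fibres, was at 7.77 RPKM with no read in heart. The beta subunits of the calcium channel changed places. CACNB2 was at 3.47 RPKM in heart and 0.0179 in muscle on 3 reads, a ratio of 194 (65.9 to 941), and CACNB1 was at 0.0685 RPKM in heart and 10.9 in muscle. TRDN, triadin, was found in both, at 130 and 526 RPKM.

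Ion channel and gap junction genes had low levels, and 7 of 15 with a symbol reached 1 RPKM in either library. Of these 7, 6 (85.7%) were higher in heart under each scaling, against 36.1% of all Ensembl genes compared. On this list, 6 genes reached 1 RPKM in heart and 2 in muscle, so most of the 7 passed the limit only in heart. GJA1, connexin 43 of the intercalated disc, was at 25.6 RPKM in heart and 1.07 in muscle, 23.8-fold higher (19.7 to 29.2). KCNJ5, a subunit of the acetylcholine-gated potassium channel, was at 6.59 RPKM with no read in muscle, at least 410-fold higher. SCN4A, the sodium channel of skeletal muscle, was at 0.147 RPKM in heart and 6.25 in muscle. The nicotinic receptor genes CHRNA1 and CHRNE of the neuromuscular junction had no read in either library. HCN4, the pacemaker channel, also had none.

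Transcription factors had low levels. Of 16 compared, 7 (43.8%) were higher in heart and 5 (31.2%) higher in muscle, against 36.1% and 12.3% of all Ensembl genes (6 and 5 at equal median ratio, where the median difference turned from 0.43 to -0.08). TBX20, TBX5, HEY2, GATA4 and GATA6, regulators of heart development, were at 7.47, 5.19, 5.68, 3.36 and 1.69 RPKM in heart and below 0.1 RPKM in muscle. GATA4 had no read there, and TBX5 and TBX20 had 1 and 2 reads. TBX20 was at most 0.173 RPKM in another organ, but GATA4, GATA6 and HEY2 were at 5.13, 6.89 and 4.73 RPKM in ovary and TBX5 at 6.63 RPKM in lung. Those higher in muscle included MYF6, the myogenic factor of mature fibres (17.7 RPKM against 2 reads in heart), and SIX4 (2.83 RPKM, no read in heart). MYOD1 stayed under the limit of 1 RPKM, with 0.878 RPKM in muscle and no read in heart. MEF2C was at 8.30 and 32.8 RPKM, whereas MEF2A and MEF2D lay within 2-fold. PPARGC1A, a coactivator of mitochondrial genes, was at 12.9 and 3.76 RPKM.

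Among hormones and receptors, 5 of 7 compared (71.4%) were higher in heart (3 at equal median ratio) and 1 (14.3%) higher in muscle. The shares over all Ensembl genes compared were 36.1% and 12.3%. Of the 13 with a symbol, 6 reached 1 RPKM in heart and 3 in muscle. CORIN, the protease that activates natriuretic peptides, was at 11.3 RPKM in heart and 0.0756 in muscle. EDNRA, the endothelin receptor, was at 5.38 and 0.163 RPKM, and ADRA1A, an alpha-adrenergic receptor, was at 1.77 RPKM with no read in muscle. MSTN, myostatin, the inhibitor of muscle growth, was at 0.515 RPKM in heart and 5.2 in muscle, 10.1-fold higher (6.56 to 16.3).

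Sugar metabolism stood on the muscle side. Of 29 genes of glycogen, glycolysis and phosphagen compared, 21 (72.4%) were higher in muscle and 6 (20.7%) higher in heart. The shares over all Ensembl genes compared were 12.3% and 36.1%. The median of the list was -2.31, and at equal median ratio its counts were 22 and 5. The summed level of the list was 1975 RPKM in heart and 10260 in muscle, 5.20-fold higher. LDHA, the M subunit of lactate dehydrogenase, was at 1301 RPKM in muscle and 4.86 in heart, 268-fold higher (239 to 302). PYGM, the muscle glycogen phosphorylase, was at 689 and 35.3 RPKM, and the enolase ENO3 at 1499 and 273 RPKM. GAPDH, often used as a reference gene, was at 4325 RPKM in muscle and 1134 in heart, 3.81-fold higher (3.76 to 3.87). FBP2, muscle fructose-bisphosphatase, and AMPD1, muscle AMP deaminase, had 61.0 and 46.6 RPKM in muscle and no read in heart, at least 985-fold and 1306-fold higher.

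The 6 genes of this list on the heart side were PYGB, CKB, HK1, PFKL, PGAM1 and PYGL. All but HK1 are forms of their enzyme other than the one of skeletal muscle, and HK1 was the larger form of its pair in younger muscle. PYGB, the brain form of glycogen phosphorylase, was at 34.7 RPKM in heart, near the 35.3 of PYGM there, and at 0.263 in muscle. HK1, hexokinase 1, was at 23.7 and 0.900 RPKM, and HK2 at 0.669 and 2.18 RPKM. PGAM1 took 51.4% of the phosphoglycerate mutase pair PGAM1 and PGAM2 in heart and 4.19% in muscle. PFKM, the muscle phosphofructokinase, was the abundant form in both tissues at 66.1 and 229 RPKM, above the 3.37 and 0.740 RPKM of PFKL.

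Fatty acid oxidation stood nearer to the background. Of 21 genes compared, 10 (47.6%) were higher in heart and 2 (9.52%) higher in muscle, against 36.1% and 12.3% of all Ensembl genes. The median was 0.82 against 0.53, and at equal median ratio 5 genes were on the heart side and the median was 0.27. CPT1B, which admits fatty acids to mitochondria in muscle, was at 34.6 RPKM in heart and 7.83 in muscle, 4.41-fold higher (3.95 to 4.93). ETFB, which passes electrons from fatty acids to the respiratory chain, was at 35.6 and 5.28 RPKM. The 2 genes on the muscle side were PDK4, which blocks glucose oxidation (2.28 and 7.27 RPKM), and UCP3, a mitochondrial carrier (1.85 RPKM in muscle, 2 reads in heart). PDK4 was far higher in younger muscle, at 277 RPKM at day 0 and 94.2 at day 30.

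Nuclear genes of the citric acid cycle and respiratory chain differed little. Of 46 compared, 33 lay within 2-fold, 12 (26.1%) were higher in heart and 1 (2.17%), SUCLA2, was higher in muscle (15.2 and 43.9 RPKM). Both shares were below the 36.1% and 12.3% of all Ensembl genes compared. The median difference was 0.54, near the 0.53 of all Ensembl genes, and at equal median ratio it was -0.001 with 5 genes on the heart side. UQCRC1, a core subunit of complex III, was at 156 and 43.3 RPKM, 3.61-fold higher in heart (3.44 to 3.78). The unlike subunit UQCRC2 was at 11.4 and 15.2 RPKM. The 4 genes for succinate dehydrogenase ran from SDHA at 39.6 and 18.1 RPKM to SDHC at 10.3 and 9.47 RPKM.

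**Figure D4:**
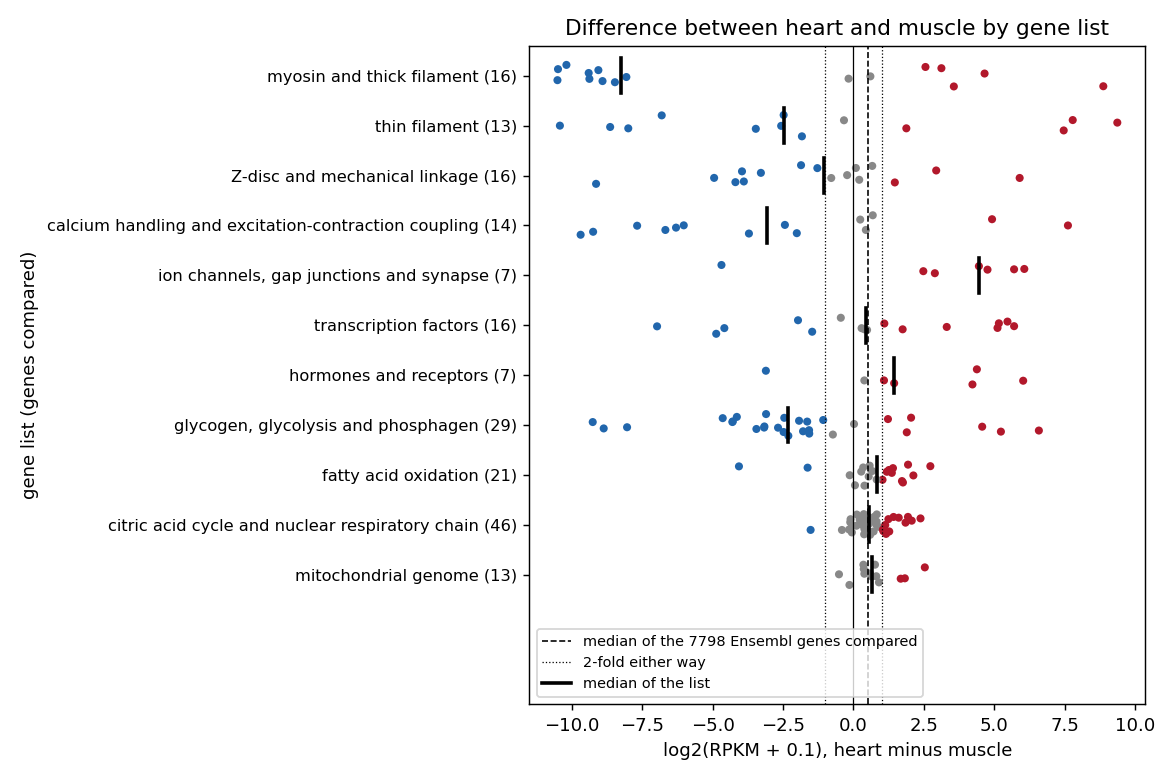
Difference in log2(RPKM + 0.1), heart minus muscle (horizontal), of each gene compared in 11 gene lists (vertical, number of genes in parentheses); red points are higher in heart, blue higher in muscle, grey within 2-fold, and black bars are list medians. Medians run from -8.27 for the thick filament to 4.45 for ion channels, gap junctions and synapse, and the 0.54 of the citric acid cycle and respiratory chain lies at the median of all Ensembl genes (dashed).

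The mitochondrial genome gave 23960 summed RPKM in heart and 17260 in muscle, and 10 of its 13 genes lay within 2-fold. COX1 was at 6615 and 4406 RPKM, CYTB at 2269 and 1445 RPKM, and COX2 at 2234 and 2467 RPKM. The 3 higher in heart (23.1%, against 36.1% of all Ensembl genes compared) were ND6, ATP8 and ND4L. ND6, the only protein gene on the other strand of this genome, was at 1302 and 225 RPKM, 5.79-fold higher in heart (5.60 to 5.99). ATP8 overlaps ATP6, and ND4L overlaps ND4, so the division of reads within these pairs is uncertain. ATP6, COX3 and ND4 were slightly higher in heart as deposited, by 0.39, 0.37 and 0.35 on the log2 scale, and slightly higher in muscle at equal median ratio. ND1 was at 1847 and 2637 RPKM, within 2-fold as deposited and past 2-fold on the muscle side at equal median ratio.

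Features of one tissue only were taken as those with at least 1 RPKM in it and under 0.1 RPKM in the other. There were 352 such Ensembl genes in heart (4.51% of those compared) and 114 in muscle (1.46%). Most had low levels, with medians of 1.70 and 2.28 RPKM, and 14 and 18 of them reached 10 RPKM. No read at all was found in the other library for 157 and 68 of them. For 145 and 50, 3 reads in the other library would already exceed 0.1 RPKM, so their absence was not detectable at this depth. Among the genes of heart only, 46 (13.1%) reached 1 RPKM in longissimus dorsi at day 0 and 32 (9.09%) at day 30. For the genes of muscle only these numbers were 66 (57.9%) and 70 (61.4%), and 79.0% and 64.8% of all Ensembl genes compared reached that level. Because both sets were chosen by their level in this muscle at day 240, part of these differences follows from that choice. In the 7 other organs, 43 genes of heart only (12.2%) and 37 of muscle only (32.5%) stayed under 1 RPKM throughout, against 2.91% of all Ensembl genes compared. Of the genes that reached 1 RPKM in another organ, the highest such organ was testis for 87 of 309 genes of heart only (28.2%) and 24 of 77 of muscle only (31.2%), near the 29.1% of all Ensembl genes compared. It was ovary for 81 (26.2%) and 19 (24.7%), against 47.7% of all Ensembl genes compared. In the muscle mixture, 167 genes of heart only (47.4%) and 88 of muscle only (77.2%) reached 1 RPKM, against 92.4% of all Ensembl genes compared.

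Among lncRNAs, 272 of 428 (63.6%) were higher in heart and 68 (15.9%) higher in muscle, with a median difference of 1.96, or 1.82 with the 132 lncRNAs at 0 in either library set at their bound. At equal median ratio 156 were higher in heart and 81 higher in muscle. Of these lncRNAs, 369 had at least 1 RPKM in heart, 160 in muscle and only 101 in both, so most passed the limit only in heart. The heart excess among lncRNAs is thus tied to which library passed the limit. For Ensembl genes these counts were 7129, 5548 and 4879. A total of 142 lncRNAs (33.2%) were of heart only and 28 (6.54%) of muscle only, with medians of 1.78 and 2.0 RPKM. For 98 and 19 of them 3 reads in the other library would exceed 0.1 RPKM. Of those of muscle only, 12 (42.9%) and 11 (39.3%) reached 1 RPKM in longissimus dorsi at day 0 and day 30, against 36.9% and 25.2% of all lncRNAs compared. Of those of heart only, 13 (9.15%) and 5 (3.52%) did. The lncRNAs compared include many under 1 RPKM in muscle at day 240, whereas those of muscle only were all at or above it. Those of heart only were all under 0.1 RPKM there. Part of these differences, here and in the muscle mixture, thus follows from how the sets were chosen. In the muscle mixture 16 lncRNAs of muscle only (57.1%) and 23 of heart only (16.2%) reached 1 RPKM, against 49.1% of those compared. In the 7 other organs 67 lncRNAs of heart only (47.2%) and 19 of muscle only (67.9%) stayed under 1 RPKM, against 32.0% of the lncRNAs compared.

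The lncRNA of highest level in both tissues was TCONS_00512109, at 6380 RPKM in heart and 6038 in muscle, a ratio of 1.06 (1.05 to 1.07). It alone took 5.29% and 4.61% of the summed RPKM. It was not particular to striated muscle, with 5375 RPKM in kidney and 278 in liver, and in the mixtures it was at 47.1 RPKM (muscle) and 3.29 RPKM (tissues). The next 4 by their lower level were all higher in muscle and at most 0.811 RPKM in the 7 other organs. TCONS_00323177 was at 219 RPKM in heart and 893 in muscle, 4.08-fold higher (3.90 to 4.28). TCONS_00323197 was at 74.1 and 383 RPKM, and TCONS_00791385 at 32.0 and 275 RPKM. TCONS_00323213 was at 29.9 and 76.6 RPKM. TCONS_00815876, at 10.4 and 209 RPKM, was the fifth lncRNA of striated muscle by the limits above. The positions of lncRNAs were not used here, so whether any of them lies beside or within a coding gene was not tested.

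The 5 lncRNAs furthest on the heart side had no read in muscle at day 240. TCONS_00051495 was at 19.3 RPKM in heart on 1235 reads, at least 373-fold higher, and at most 0.213 RPKM in another organ. TCONS_00082994 was at 14.8 RPKM and at most 0.0986 RPKM in another organ. TCONS_00361619, TCONS_00235622 and TCONS_00022715, at 18.8, 15.8 and 14.8 RPKM in heart, reached 6.17, 3.69 and 5.36 RPKM in lung, ovary and testis. TCONS_00022715 was also at 1.81 RPKM in longissimus dorsi at day 30 and 4.05 in the muscle mixture, where the others were lower. On the muscle side TCONS_00811385 stood apart with 77.1 RPKM on 717 reads and none in heart, at least 263-fold higher. It had no read in any of the 7 other organs and was at 94.5 RPKM at day 0, 60.0 at day 30 and 771 in the muscle mixture. TCONS_00177241, TCONS_00842621, TCONS_00545140 and TCONS_00579228 followed with 8.68, 7.45, 6.81 and 6.40 RPKM. TCONS_00842621 had 1 read in heart, and the other 3 had none. TCONS_00545140 rested on 62 reads, and in younger muscle it was at 0.301 RPKM at day 0 with no read at day 30. TCONS_00177241 had no read at day 0, while TCONS_00842621 and TCONS_00579228 were found at both ages.

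**Figure D5:**
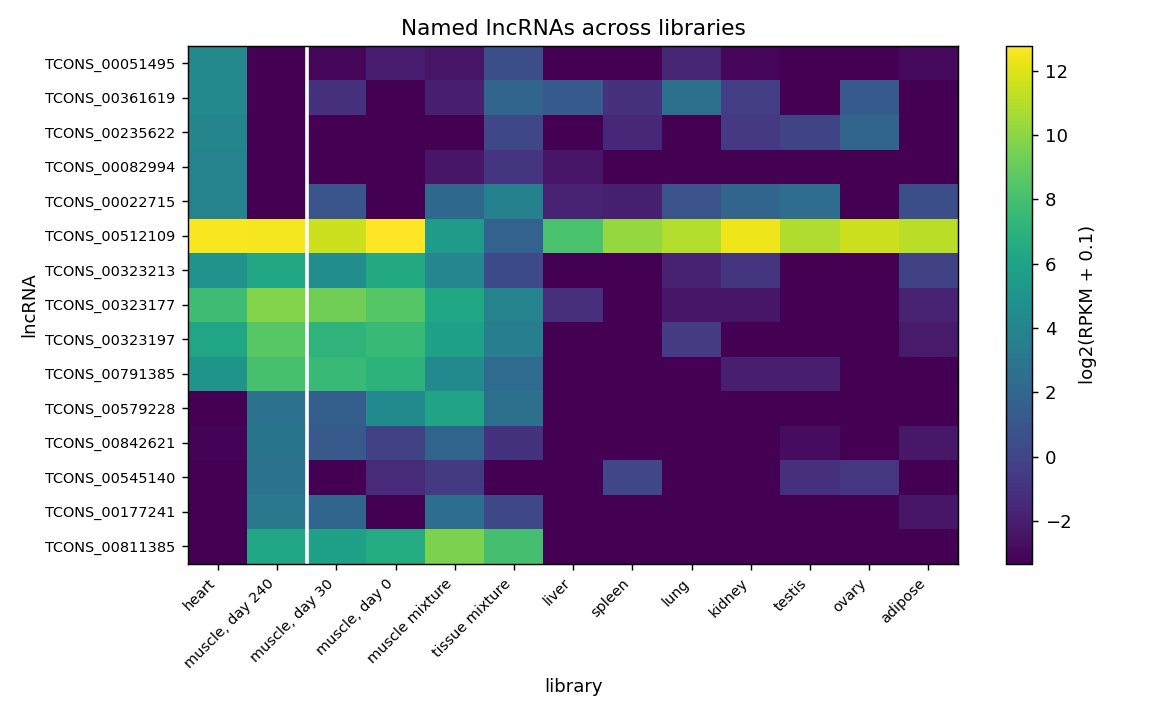
Level of the 15 named lncRNAs (vertical, ordered by heart minus muscle) as log2(RPKM + 0.1) by colour in the 13 libraries (horizontal); the white line separates heart and longissimus dorsi at day 240 from the rest. TCONS_00512109 is high in the single tissues and low in both mixtures, while TCONS_00323177, TCONS_00323197, TCONS_00791385 and TCONS_00323213 are bright in heart and in the single muscle libraries and dark in the other organs.

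Marker genes of other cell types were read beside these results. Endothelial markers (7 with a symbol) summed to 26.8 RPKM in heart and 9.28 in muscle, fibroblast markers (6) to 88.5 and 49.0, smooth muscle markers (5) to 33.7 and 13.5, and blood markers (3) to 38.3 and 9.98. Of the 5 endothelial markers compared, 4 were higher in heart (2 at equal median ratio), as were 2 of 6 fibroblast markers (1), 3 of 5 smooth muscle markers (3) and 2 of 2 blood markers (1), beside 36.1% of all Ensembl genes. The fibroblast share of 33.3% lay near that background. Leukocyte markers summed to 3.68 and 1.07 RPKM, and adipocyte, Schwann cell, mesothelial and satellite cell markers to under 1 RPKM in both, with the defining adipocyte genes PLIN1 and CIDEC at 0 in heart and at 0.0194 and 0.118 RPKM in muscle. These sums moved in the direction of the heart excess, and their part in it was not tested.

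The labels were read against known genes of each tissue. The heart library held TNNT2, MYBPC3, RYR2, GJA1, TBX20 and GATA4, and the muscle library TNNC2, MYL1, ATP2A1, CASQ1 and MYF6. Each was under 1% of its level or without a read in the other tissue except GJA1, at 1.07 RPKM in muscle. TNNT2, MYBPC3, RYR2, TNNC2 and ATP2A1 were already among the 10 genes furthest apart on their side. Their low level in the other tissue follows from that rank and is no separate check of the labels. GATA4 was higher in ovary than in heart, and HCN4 had no read in heart. Of the atrial markers with a symbol, MYL4 was at 2.42 RPKM in heart, SLN at 0.318, GJA5 at 0.358 and NR2F2 at 0.804, and MYBPHL had no read. Of the ventricular markers, MYL3 was at 1521 RPKM, LMOD2 at 146, HEY2 at 5.68, NPPB at 0.996 and IRX4 at 0.934. MYL3 and LMOD2 were also at 175 and 185 RPKM in muscle, so they are not particular to heart in these libraries.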

How the data were processed

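Total RNA of 13 libraries was depleted of ribosomal RNA and sequenced from strand-specific paired-end libraries made with a SMART or a dUTP protocol, without naming which for each library. The authors deposited 1 RPKM value per feature and library. Their processing notes name TopHat 1.3.2 and Cufflinks, and reads were counted with htseq-count. The genome build of these values and the reads that enter the RPKM total are not given in the sources used here. Positions of features were not used here.

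Read totals, feature lengths and whole reads were recovered from the steps of the RPKM values with pandas 2.3.3 and numpy 2.4.6. All 22695 features detected in 4 or more libraries had a length giving whole reads, and none did with altered totals (0 features). All 6767 features detected in 1 to 3 libraries had one too, but so did 2530 of them with altered totals, and their reads are lower bounds. Symbols came from a table of gene names, which paired 11654 of 21607 identifiers (5099 of 7798 compared). Other genes are named by identifier. Of 390 genes on the lists, 264 had a symbol, 1 of them (MYL11) through its current name. MYH7, TNNI3, PLN and NPPA, among others, had none and are not reported here. Some list members with a symbol are counted but not reported singly here.

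Differences were taken on the log2(RPKM + 0.1) scale with a limit of 2-fold. Folds against no read used a floor of 3 reads, and exact 95% intervals used scipy 1.17.1. Both cover counting error only. The steps were tested on simulated data. Named features were the list members, the 10 highest of each library, the 10 shared abundant features of highest lower level, the 10 genes and 5 lncRNAs with the largest difference each way, and the 5 lncRNAs of highest lower level in both. Members and lists were chosen with earlier results of these data known, and features named outside this rule were chosen after their values were seen. Alternatives were other pseudocounts, filters, limits and scalings.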

Additional observations from a re-analysis of the deposited data

How the results depend on the processing

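Of the features named for their level or difference, all 51 kept their direction and their side of 2-fold with a pseudocount of 1 and with RPKM scaled to the same total, and 46 did at the same median ratio, where TCONS_00512109, ATP6, COX3 and ND4 changed sign within 2-fold and ND1 passed 2-fold. Of the 217 list members compared, some of them among these 51, 206 kept both with a pseudocount of 1, 208 at the same total and 157 at the same median ratio. Counts moved more. With a pseudocount of 1, 1739 Ensembl genes were higher in heart and 632 in muscle. With a minimum of 0.1 RPKM or no filter they were 5171 and 1640 (lncRNAs 1116 and 392), with a minimum of 5 RPKM 833 and 447 (lncRNAs 26 and 16), and at 4-fold 1291 and 391. At the same median ratio they were 1477 and 1661, with 156 lncRNAs higher in heart. Genes of one tissue only were 157 (heart) and 68 (muscle) when no read was allowed in the other, and 36 and 27 from 5 RPKM (lncRNAs 13 and 5). At the same median ratio 216 genes and 91 lncRNAs of heart only were left. Requiring that 3 reads be worth no more than 0.1 RPKM, an alternative chosen after seeing the data, left 207 and 64 genes and 44 and 9 lncRNAs. Shared abundant features were 84 from 50 RPKM and 13 from 200 RPKM. The share of the top 10 was 35.9% (heart) and 40.4% (muscle) without mitochondrial genes, 32.7% and 32.6% by reads with the 10 chosen by reads, 32.1% and 25.0% by reads of the same 10 (an alternative chosen after seeing the data), and 34.4% in heart with Ensembl genes alone. Scaling without the 18 features in either top 10, also chosen after seeing the data, gave 2799 and 960 genes. No paired analysis was possible because the labels give heart and muscle no shared replicate numbers and there was 1 library each; for the same reason no replicate could be left out. Depth limits the features of one tissue only, since for 145 genes of heart and 50 of muscle 3 reads in the other library would exceed 0.1 RPKM.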

Other observations

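Some transcripts at the muscle end were found at low and uneven levels in heart and in organs without skeletal muscle fibres of their own. TNNC2, at 10378 RPKM in muscle, was at 7.47 in heart, 8.11 in adipose tissue, 1.39 in liver and 1.2 in lung, and had no read in spleen. MYH8 was at 2.44 RPKM in heart, 2.87 in adipose tissue, 1.2 in liver and 0.987 in lung. It was at 0.0646 RPKM in testis and 0.0209 in ovary, with no read in spleen. MYL1 was at 7.81 RPKM in heart, 2.92 in adipose tissue and 0.0508 in ovary, with no read in spleen or testis. ENSSSCG00000018006 was at 2.61 RPKM in heart, 2.10 in liver, 1.96 in kidney and 0.168 in testis, with no read in spleen or ovary. MYL1 in heart was thus above its level in every other organ, while TNNC2 and MYH8 in heart were below their level in adipose tissue. The cause of these low levels was not tested.

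Some heart genes were also found in testis, and others were not. TNNT2 was at 21.2 RPKM in testis and at most 0.26 RPKM in the 6 remaining organs, and ENSSSCG00000024505 was at 24.9 RPKM in testis and 11.8 in lung. MYL3 was at 4.43 RPKM in testis. MYH6, TNNC1 and ENSSSCG00000009830, which are of like abundance in heart, were at 0.24, 0.052 and 0 RPKM in testis. CA3 was likewise at 44.1 RPKM in testis and 25.6 in adipose tissue, against 0.580 in heart.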
